A study of Mus musculus with 20 samples.

Results

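The CCN family of matricellular proteins and the YAP pathway genes around it were followed in the hearts of old mice fed rapamycin, a drug that blocks the nutrient-sensing kinase mTOR. The members were chosen by symbol: Cyr61, Ctgf, Nov, Wisp1 and Wisp2 (CCN1 to CCN5), the angiomotin Amotl2, and the coactivators Yap1 and Wwtr1, the last of which encodes TAZ. All 8 were found among the 34291 gene rows of the deposited counts, and all 8 had enough reads to be tested. The sixth family member, Wisp3, held 1 to 9 reads in control and 3 to 10 in rapamycin libraries and was not tested.

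Poly(A) RNA came from powdered whole hearts of C57BL/6 mice killed at 27 months of age. In the rapamycin group 10 animals had received a diet with 14 ppm rapamycin for 3 months, from 24 months of age, and in the control group 10 age-matched animals had received the control diet. The labels name this inbred strain and no other allele for both groups, and the sources used here do not give their sex. Libraries held 7039514 to 10594335 counts in controls and 8525162 to 12458309 with rapamycin; control 7 or rapamycin 18 below stand for the library of that label number. Cardiomyocyte markers were abundant in every library, from 19086 to 57770 summed CPM (counts of a gene relative to the library's total, scaled alike in all libraries) over 10 genes in controls. Control 19, which had the lowest of these sums, held 28091 CPM of 5 lung genes against at most 363 in any other library, so results are also given without it. Lung transcripts exceeded 10 times the median in 4 libraries, liver transcripts in rapamycin 9 and thymus transcripts in rapamycin 8.

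CCN proteins are secreted into the extracellular matrix, where they bind integrins and other surface receptors rather than forming structural fibres. Cyr61 and Ctgf are the textbook targets of YAP and TAZ, coactivators that enter the nucleus and act through TEAD transcription factors unless kinases of the Hippo pathway hold them in the cytoplasm. Cyr61 is also known as a growth factor-inducible immediate early gene, and Ctgf as a gene of fibroblasts and stressed cardiomyocytes that accompanies cardiac fibrosis.

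The TEAD motif is the sequence through which YAP and TAZ reach their targets, so the promoters of a target that rose (Cyr61) and of a target that did not pass (Amotl2) are shown. RefSeq promoter sequences of GRCm38.p6, another build than that of the counts, were matched for 4 of the 8 genes. Each is the 250 bases before the annotated start, 5′ to 3′ on the gene's strand, with GGAATG or its reverse complement CATTCC in capitals. The Cyr61 sequence lies on the minus strand at chr3:145649986-145650235 and that of Amotl2 on the plus strand at chr9:102717554-102717803.
Cyr61: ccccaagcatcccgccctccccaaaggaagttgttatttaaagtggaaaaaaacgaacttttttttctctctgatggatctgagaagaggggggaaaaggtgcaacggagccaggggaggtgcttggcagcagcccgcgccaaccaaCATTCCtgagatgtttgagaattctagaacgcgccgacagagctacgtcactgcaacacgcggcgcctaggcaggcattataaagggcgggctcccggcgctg
Amotl2: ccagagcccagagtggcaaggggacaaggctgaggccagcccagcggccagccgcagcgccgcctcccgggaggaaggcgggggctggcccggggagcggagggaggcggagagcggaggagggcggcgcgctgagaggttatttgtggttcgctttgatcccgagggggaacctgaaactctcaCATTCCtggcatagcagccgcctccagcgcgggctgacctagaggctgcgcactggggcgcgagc
The motif stands at bases -103 to -98 from the start in Cyr61 and at -65 to -60 in Amotl2. The matched windows of Yap1 and Wwtr1 held 1 match each as well, in a search of both strands, and 12.6% of all 32851 promoter windows of this length held at least 1. The Cyr61 window also held the letters CGTCA at bases -58 to -54, the reverse complement of the cyclic AMP response half-site TGACG, which 17.8% of all windows held on either strand and none of the Amotl2, Yap1 and Wwtr1 windows did. The AP-1 motif TGANTCA, searched on both strands, was in none of these windows (6.75% of all windows), nor was the CArG box of serum response factor (1.47%). These matches describe the letters of the windows and show neither binding nor use.

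Of the 8 genes, only Cyr61 passed the test for a difference between diets (edgeR quasi-likelihood test, adjusted p under 0.05 over 13940 genes). It rose 1.65-fold, and the other 7 did not pass. Among all genes tested, 3.36% were called in either direction, of which the genes that rose made up 0.689% of those tested and the genes that fell 2.68%. Without control 19 the called member was again Cyr61, against 3.38% of 13977 genes called, 1.05% that rose and 2.33% that fell. With 1 of 8 called, no share over the members is read from these counts. The median log2 fold change was 0.01 over the 5 tested CCN genes and -0.01 over all genes.

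**Figure D1:**
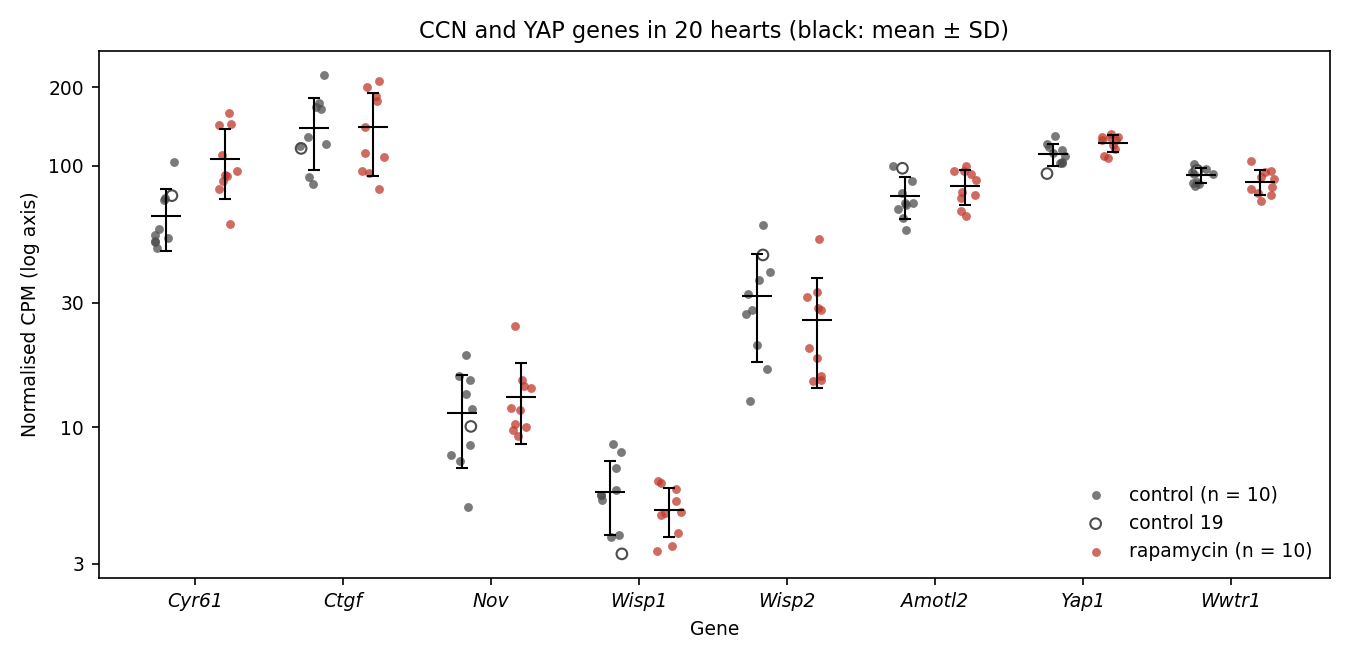
Normalised CPM on a log axis (y) of each of the 8 genes (x) in every heart, with control in grey, rapamycin in red, control 19 as an open circle, and black bars for the mean ± SD (n = 10 per group). All 10 Cyr61 values with rapamycin lie above the control median of 55.9, while the Ctgf clouds lie over each other.

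Cyr61, a secreted ligand of integrins that acts on endothelial cells, fibroblasts and cardiomyocytes, stood at a lowest, median and highest level of 48.5, 55.9 and 103 normalised CPM in controls. With rapamycin these were 59.9, 93.9 and 159 normalised CPM. The groups overlapped: 4 rapamycin hearts (numbers 3, 8, 14 and 18) lay above every control, 6 controls lay below every rapamycin heart, and control 7 was the only control above the rapamycin median. Means were 64.5 ± 17.4 (control) and 106 ± 32.1 normalised CPM (rapamycin; SD, n = 10 each). The log2 fold change was 0.72 ± 0.17 (SE, 95% interval 0.38 to 1.07, adjusted p = 0.0254 by edgeR), or 0.76 without control 19 (adjusted p = 0.0168). When each library was left out in turn, the call ended only without rapamycin 18 (log2 0.67, adjusted p = 0.0528 by edgeR). It was also lost without the 6 libraries with lung, liver or thymus transcripts, at a log2 fold of 0.73 in 7 against 7 hearts (adjusted p = 0.0802 by edgeR, where 25 genes in all were called). Cyr61 is the only member among the 700 genes of the authors' deposited table of selected genes. That table was drawn from the same counts, which hold 34291 gene rows, so it is not an independent test.

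Ctgf, a secreted cofactor of TGF-beta signalling in fibrosis, had nearly the same level in both groups. It stood at 85.3, 125 and 223 normalised CPM in controls (lowest, median and highest) and at 81.6, 126 and 212 with rapamycin. High and low hearts occurred in both groups: control 11 and rapamycin 14 were the highest, and control 16 and rapamycin 15 the lowest. Means were 139 ± 42.7 (control) and 141 ± 48.9 normalised CPM (rapamycin; SD, n = 10 each), a log2 fold of 0.01 ± 0.19 (SE, adjusted p = 0.979 by edgeR). The 95% interval ran from -0.39 to 0.42, so differences within that range in either direction are not excluded. The sign of this fold turned under 11 of 29 alternative settings, without control 19 among them (-0.01).

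The difference between these targets was tested within each library as a log2 ratio. Cyr61 over Ctgf had a mean log2 ratio of -1.09 ± 0.64 in the control and -0.38 ± 0.56 in the rapamycin hearts (SD, n = 10 each), a difference of 0.71. The 2-sided permutation p was 0.0180, adjusted to 0.0270 over 3 ratios, and 9 of 10 rapamycin hearts lay above the control median. This call ended without control 11 (difference 0.60, adjusted permutation p = 0.0510), without rapamycin 3 (0.64, 0.05001) and without rapamycin 8 (0.63, 0.0529). Cyr61 over Amotl2 went from -0.27 ± 0.46 to 0.31 ± 0.36 log2 units, a difference of 0.58 (adjusted permutation p = 0.0206, 10 of 10 rapamycin hearts above the control median). That call held in each of the 20 analyses without 1 library. Both calls ended without the 6 libraries with transcripts of other organs (adjusted permutation p = 0.120 for each). Ctgf over Amotl2 differed by -0.14 between diets (adjusted permutation p = 0.451).

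Nov, a CCN protein known as a restraint on growth of vascular smooth muscle, stood at 4.94, 10.9 and 19 normalised CPM in controls (lowest, median and highest). With rapamycin it stood at 9.25, 11.7 and 24.5. The ranges overlapped, with control 13 lowest and rapamycin 9 highest. The log2 fold was 0.20 ± 0.21 (SE, 95% interval -0.24 to 0.65, adjusted p = 0.608 by edgeR). It was 0.19 without control 19 and 0.06 without rapamycin 9, the library with liver transcripts.

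Wisp1, a Wnt-inducible CCN protein of matrix-producing cells, was the scarcest member, with 27 to 94 reads per control library and 30 to 77 with rapamycin. It stood at 3.28, 5.52 and 8.61 normalised CPM in controls (lowest, median and highest) and at 3.35, 4.73 and 6.23 with rapamycin. The 3 highest hearts were controls and the lowest was control 19, so the ranges overlapped. The log2 fold was -0.23 ± 0.17 (SE, 95% interval -0.59 to 0.12, adjusted p = 0.435 by edgeR), or -0.30 without control 19 (adjusted p = 0.324).

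Wisp2, the family member that lacks the C-terminal module of the other CCN proteins, varied most between hearts. It stood at 12.6, 30.2 and 59.3 normalised CPM in controls (lowest, median and highest) and at 15.1, 24.1 and 52.3 with rapamycin. Its coefficient of variation was 44.2% in controls and 45.1% with rapamycin, against medians of 17.3% and 12.7% over all genes tested. Control 13 and rapamycin 5 were the highest of their groups and the ranges overlapped. The log2 fold was -0.30 ± 0.26 (SE, 95% interval -0.83 to 0.24, adjusted p = 0.533 by edgeR), or -0.48 without rapamycin 5 (adjusted p = 0.230). Without control 19 it was -0.22 (adjusted p = 0.714 by edgeR).

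Most known receptors of CCN proteins did not pass, and the 2 that fell encode subunits of a leukocyte integrin. Of 13 receptor genes tested, 2 fell and none rose, with a median log2 fold of -0.04. Over all genes tested, 2.68% fell with 20 libraries and 2.33% without control 19. Itgb2 and Itgam together encode the leukocyte integrin Mac-1. Itgb2 stood at 15.8, 27.3 and 91.6 normalised CPM in controls (lowest, median and highest, the last in control 19) and at 10.5, 13.4 and 21.3 with rapamycin. Its log2 fold was -1.20 ± 0.25 (SE, adjusted p = 0.0165 by edgeR), or -0.89 without control 19 (adjusted p = 0.00726). Itgam fell with a log2 fold of -0.89 ± 0.24 (SE, adjusted p = 0.0437 by edgeR) or -0.61 without control 19 (0.0406), and no longer passed in 12 of 20 fits that omitted a library. Without the 6 libraries with transcripts of other organs neither passed, with log2 folds of -0.92 for Itgb2 (adjusted p = 0.0565 by edgeR) and -0.59 for Itgam (0.133). Of 10 macrophage markers 8 also fell (median log2 fold -0.58), against the same 2.68% of all genes. Their part in these values was not tested. Without the same 6 libraries none of the 10 was called (median -0.65), and C1qa, C1qb, C1qc and Csf1r lost their calls in 8 to 14 of the 20 fits that omitted a library. In such bulk tissue, fewer cells of a type and less RNA per cell cannot be told apart. The integrin subunits Itgav (-0.03 ± 0.08, SE, adjusted p = 0.839 by edgeR), Itgb5 (0.08 ± 0.09, 0.655) and Itgb1 (-0.04 ± 0.06, 0.713), which bind Cyr61 and Ctgf on adherent cells, did not pass. The beta 3 subunit Itgb3 was at -1.44 ± 0.44 (SE, adjusted p = 0.0707 by edgeR) and at -1.25 without control 19. Another control held 85.5 normalised CPM of Itgb3, more than control 19 (46.1). The medians were 9.25 in controls and 7.19 with rapamycin, so the fold without control 19 still includes that high control. The syndecan Sdc4, a coreceptor on many cell types, was at -0.59 ± 0.18 (0.0678) and at -0.40 without control 19. Both fell by DESeq2 and with total counts as the only scaling.

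Amotl2, an angiomotin-like scaffold that binds YAP at cell junctions and is itself a YAP target, stood at 57, 72.2 and 99.5 normalised CPM in controls (lowest, median and highest). With rapamycin it stood at 64.3, 83.7 and 99.7. The ranges overlapped almost wholly, although 8 of 10 rapamycin hearts lay above the control median. Its log2 fold was 0.12 ± 0.10 (SE, 95% interval -0.09 to 0.34, adjusted p = 0.515 by edgeR), or 0.17 without control 19. With total counts as the only scaling it was -0.01, a scaling that moved the median of all genes to -0.13.

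Yap1 and Wwtr1 varied little between hearts. Yap1 stood at 93.4, 110 and 130 normalised CPM in controls (lowest, median and highest), with control 19 lowest, and at 107, 126 and 133 with rapamycin. The ranges overlapped, 8 of 10 rapamycin hearts lay above the control median, and 1 control lay above the rapamycin median. The log2 fold was 0.14 ± 0.06 (SE, 95% interval 0.02 to 0.27), with an unadjusted p of 0.0240 and an adjusted p of 0.162 by edgeR. It was 0.12 without control 19 (adjusted p = 0.210 by edgeR) and 0.02 with total counts as the only scaling. Wwtr1 stood at 84.0, 93.1 and 102 normalised CPM in controls and at 73.2, 86.1 and 105 with rapamycin. In its case 5 rapamycin hearts lay below every control and 1, rapamycin 5, above every control. The log2 fold was -0.08 ± 0.06 (SE, 95% interval -0.21 to 0.05, adjusted p = 0.453 by edgeR), or -0.07 without control 19.

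The TEAD factors that carry YAP and TAZ to DNA did not pass either. Among 8 tested genes of the YAP, TAZ and TEAD list none was called, and the median log2 fold was 0.04. Tead1, the TEAD factor known to be prominent in heart muscle, stood at 165 ± 24.2 (control) and 172 ± 17.4 normalised CPM (rapamycin; SD, n = 10 each; log2 fold 0.06 ± 0.08, SE, adjusted p = 0.696 by edgeR). Tead3 stood at a log2 fold of 0.17 ± 0.08 (adjusted p = 0.245 by edgeR) and Tead2 at -0.13 ± 0.09 (0.383). Of the 26 genes of the Hippo kinase cascade and its regulators none was called, with 14 values above 0 and 12 below, and a median of 0.02. The kinase genes Lats1 (0.08 ± 0.08, SE, adjusted p = 0.575 by edgeR) and Lats2 (0.11 ± 0.07, 0.396), whose products phosphorylate YAP, did not pass. Stk4, the upstream kinase MST1, was at -0.40 ± 0.13 (SE, adjusted p = 0.0770 by edgeR) and passed without control 19 at -0.24 (adjusted p = 0.0392). Control 19 held 71.0 normalised CPM of Stk4 against at most 37.9 in the other controls. The regulator Wwc1 (-2.17 ± 0.71, SE, adjusted p = 0.0849 by edgeR) rested on that library, with 53.3 normalised CPM there and at most 3.78 in the other controls, and stood at -0.39 without it (adjusted p = 0.491). Taok3, a kinase that activates the MST kinases, was at -0.33 ± 0.12 (SE, adjusted p = 0.128 by edgeR) and at -0.21 without control 19.

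A published set of conserved YAP and TEAD targets was examined next. Of its 20 tested genes Cyr61 rose and 19 did not pass, with 10 values above 0, 10 below and a median log2 fold of -0.01. The set holds Cyr61, Ctgf and Amotl2, so its count is not independent of theirs. After Cyr61 the smallest p-values belonged to the ectonucleotidase Nt5e (-0.61 ± 0.21, SE, adjusted p = 0.0985 by edgeR, and -0.31 without control 19), the membrane repair protein Myof (-0.51 ± 0.18, 0.105, and -0.30 without it) and Arhgef17 (0.29 ± 0.11, 0.136). Arhgef17 rose without the 4 libraries with lung transcripts. Ankrd1, a stress-responsive cardiomyocyte protein and a strongly expressed YAP target, stood at 1659 ± 679 (control) and 1416 ± 369 normalised CPM (rapamycin; SD, n = 10 each; log2 fold -0.23 ± 0.20, SE, adjusted p = 0.537 by edgeR).

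**Figure D2:**
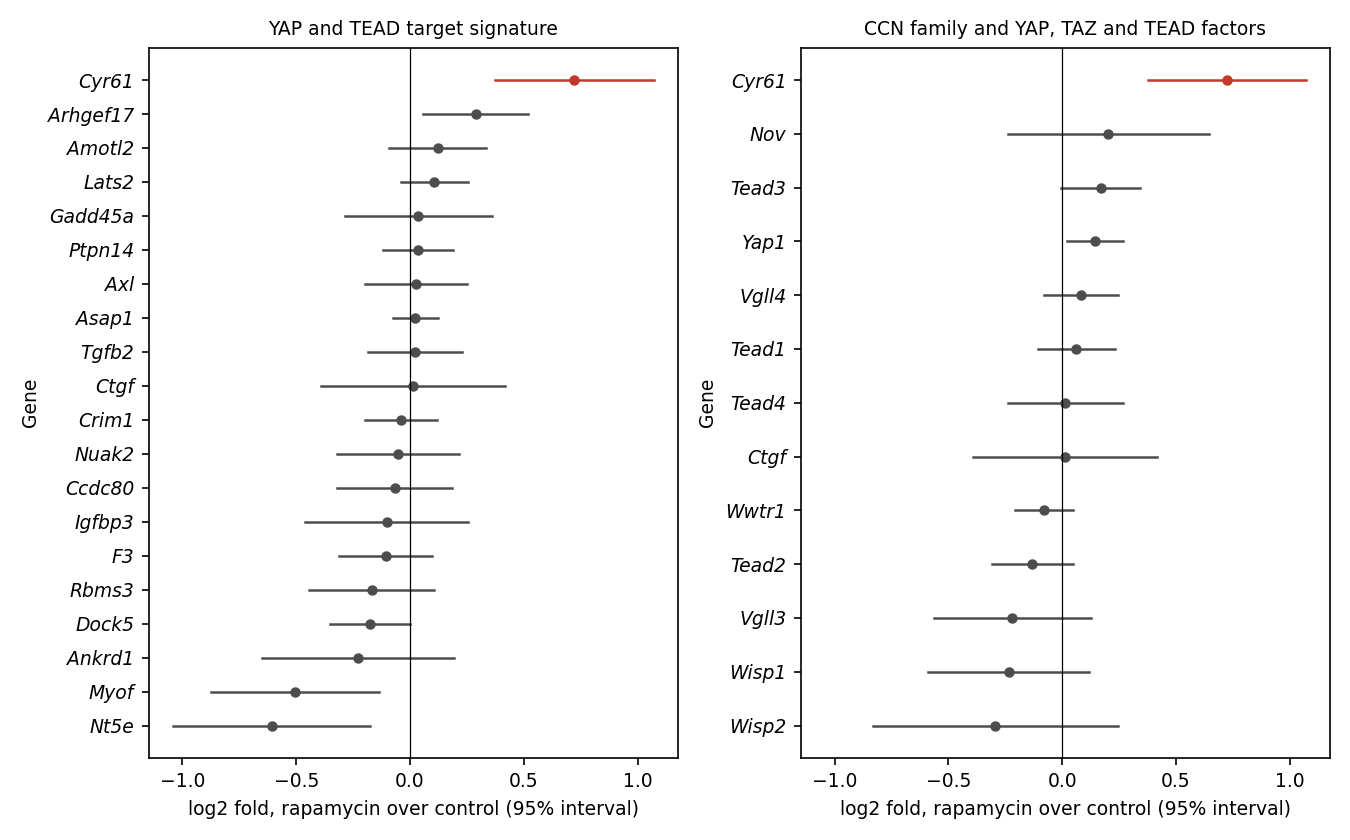
Log2 fold of rapamycin over control (x, point) with its 95% interval (line) for each tested gene (y) of the YAP and TEAD target set (left) and of the CCN family with the YAP, TAZ and TEAD factors (right), with genes at an adjusted p under 0.05 in red. Cyr61 at 0.72 is the only red point in either panel.

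Genes of TGF-beta signalling, serum response factor cofactors with actin-responsive targets, and immediate early genes were examined in the same fit. Of 12 TGF-beta ligands, receptors and effectors none was called (median log2 fold -0.01), with the latent TGF-beta binding protein Ltbp1 at 0.22 ± 0.07 (SE, adjusted p = 0.0829 by edgeR) and the receptor Tgfbr2 at -0.24 ± 0.10 (0.162). Of 15 serum response factor cofactors and actin-responsive targets none was called, 11 had values below 0 and the median was -0.22 (-0.14 without control 19), with the calponin Cnn2 at -0.50 ± 0.17 (SE, adjusted p = 0.0972 by edgeR, and -0.29 without control 19), the cofactor Mkl1 at -0.27 ± 0.10 (0.112) and Fhl2 at 0.32 ± 0.12 (0.114). Of 23 immediate early genes other than Cyr61, 3 rose and none fell, 19 had values above 0, and the median was 0.35. The called genes were the transcription factor Egr1 (1.34 ± 0.30, SE, adjusted p = 0.0200 by edgeR), the nuclear receptor Nr4a1 (1.22 ± 0.32, 0.0407) and the phosphatase Dusp1 (0.63 ± 0.17, 0.0457). Omitting a library ended the call of Nr4a1 in 11 and of Dusp1 in 14 of 20 fits. Without control 19 7 of the 23 rose, and without the 6 libraries with transcripts of other organs none did. Over all genes tested, 0.689% rose with 20 libraries and 1.05% without control 19. Without the 6 libraries only 3 of 13930 genes rose, and 21 of the 23 had values above 0 (median 0.40).

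Across hearts of the same diet, Cyr61 varied with the immediate early genes, and none of its pairs with another CCN or YAP gene passed. After each group's mean was removed, log2 CPM of Cyr61 and the mean of the 23 immediate early genes had a Pearson r of 0.86 and a Spearman rho of 0.77 over 20 hearts (adjusted permutation p = 0.000640 and 0.0128 over 64 relations). The r was 0.79 without the 2 hearts farthest from the median of Cyr61, 0.86 without control 19, and at least 0.82 when any 1 heart was left out. Of the 64 relations between a member and the mean of a gene or marker list, 2 passed by both coefficients. Ctgf had an r of 0.24 with the same mean (rho 0.23, adjusted permutation p = 0.648 and 0.688), and whether the 2 coefficients differ was not tested. The 5 genes most like Cyr61 among those with a mean of at least 2 CPM were Ier2 (r 0.90), Btg2 (0.86), Egr1 (0.85), Dusp1 (0.84) and Klf2 (0.80), with Spearman rho of 0.87, 0.73, 0.84, 0.83 and 0.72 over the 20 hearts. All 5 are in the immediate early list.

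**Figure D3:**
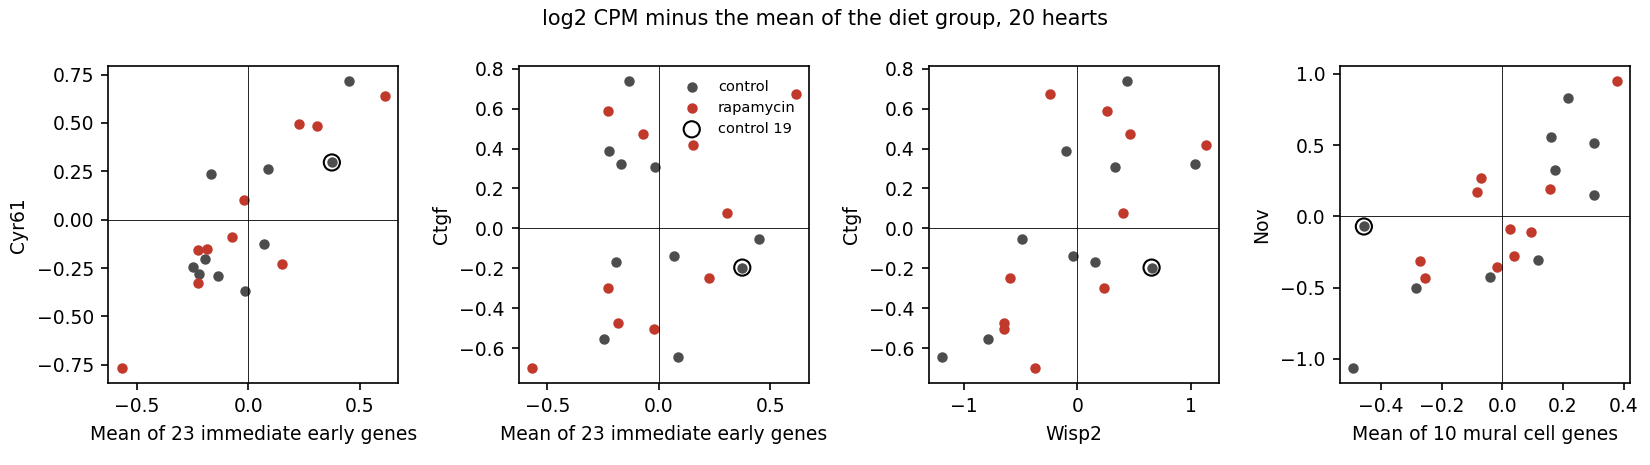
Log2 CPM minus the mean of the diet group in 20 hearts (control grey, rapamycin red, control 19 ringed), with panels plotting Cyr61 and Ctgf (y) against the mean of 23 immediate early genes (x), Ctgf (y) against Wisp2 (x), and Nov (y) against the mean of 10 smooth muscle and pericyte genes (x). The points rise together in the Cyr61 panel (r 0.86) and are scattered in the Ctgf panel against the immediate early genes (r 0.24).

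Ctgf varied with 2 other CCN genes, Wisp1 and Wisp2. Of the 28 pairs of members, 2 passed by both coefficients: Ctgf with Wisp1 (r 0.67, rho 0.67, adjusted permutation p = 0.0339 and 0.0419 over 20 hearts) and Ctgf with Wisp2 (r 0.64, rho 0.65, 0.0465 and 0.0419). Without the 2 hearts farthest from the median of Ctgf, r was 0.59 and 0.73. Within controls alone these r were 0.76 and 0.68, and within rapamycin hearts 0.63 and 0.62. The first pair no longer passed in 6 and the second in 16 of the 20 analyses that left out 1 heart, with r staying between 0.62 and 0.72 and between 0.58 and 0.73. Without control 19, 4 pairs passed, with Ctgf and Amotl2 (r 0.63) and Amotl2 and Yap1 (r 0.64) added. Over 20 hearts Ctgf had an r of 0.54 with Amotl2 and 0.53 with Yap1, which are not CCN genes. Neither passed (adjusted permutation p = 0.128 for each r), and whether these differ from the r with Wisp1 and Wisp2 was not tested. With Nov its r was -0.21. Cyr61 had an r of 0.05 and a rho of -0.05 with Ctgf (adjusted permutation p = 0.910 and 0.949). Within controls alone this r was -0.32 and within rapamycin hearts 0.31, and whether these differ was not tested. The 5 genes most like Ctgf were Efhd2 (r 0.85), Gas6 (0.85), Uchl1 (0.84), Man2b2 (0.83) and Lgi2 (0.82), none of them called. Those most like Amotl2 were Pitpnm1, Bcam, Mboat7, Gga1 and Hsdl1, each with an r of 0.83.

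**Figure D4:**
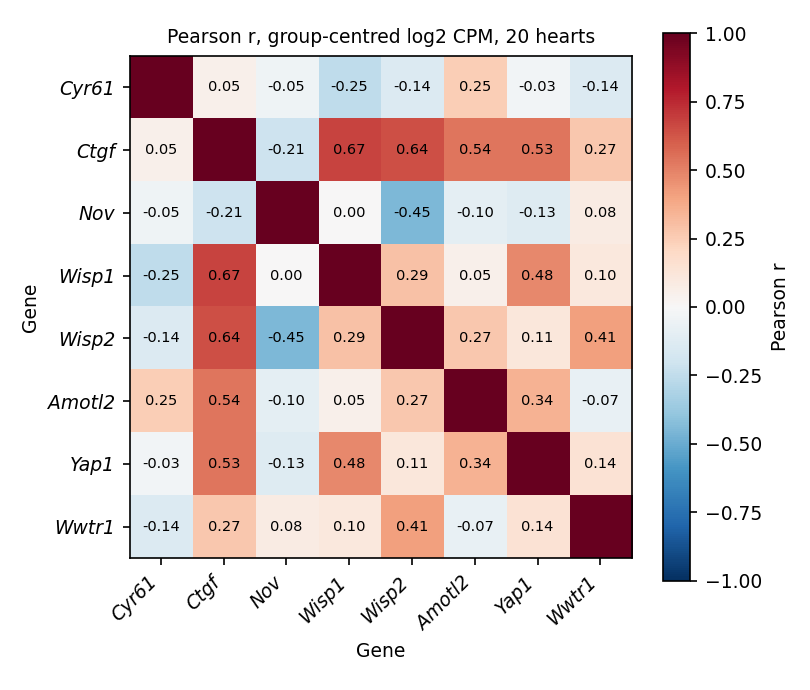
Pearson r between each pair of the 8 genes (x and y) over 20 hearts, on log2 CPM minus the mean of the diet group, with red for positive and blue for negative values. The row of Ctgf holds the 2 highest values (0.67 with Wisp1 and 0.64 with Wisp2), while the values of Cyr61 lie between -0.25 and 0.25.

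Nov varied with the markers of smooth muscle and pericytes, the mural cells of vessels. Its Pearson r with the mean of 10 such genes was 0.75 and its rho 0.74 (adjusted permutation p = 0.0122 and 0.0234 over 64 relations). The r was 0.61 without the 2 hearts farthest from the median of Nov, 0.82 without control 19, and at least 0.68 when any 1 heart was left out. None of the 10 mural cell markers was called between diets (median log2 fold 0.17). Without control 19 (median 0.11) the channel subunits Abcc9 (0.36, adjusted p = 0.0157 by edgeR) and Kcnj8 (0.24, 0.0277) rose, as they did by DESeq2. Only Abcc9 rose without the 4 libraries with lung transcripts. Neither rose without the 6 libraries with transcripts of other organs, with other scalings or by limma-voom. Control 19, lowest in summed cardiomyocyte markers, held 110 normalised CPM of Abcc9 and 20.6 of Kcnj8, against control medians of 291 and 42.1. Which cells these transcripts came from was not tested. None of the 10 fibroblast markers (median -0.08) or the 10 endothelial markers (-0.06, and 0.04 without control 19) was called. None of the 10 cardiomyocyte markers was called either, all 10 had values above 0, and their median was 0.29. Without control 19 it was 0.21 and Myl2 rose (0.38, adjusted p = 0.0430 by edgeR). Of 8 mesothelial markers, which cover the surface of the heart, Msln fell and all had values below 0 (median -0.84). Msln lost its call in 11 of the 20 fits that omitted a library, control 19 among them (adjusted p = 0.0548 by edgeR). It also lost it without the 6 libraries with transcripts of other organs (adjusted p = 0.184 by edgeR). Krt19, Krt8, Msln and Upk3b fell by DESeq2 and with total counts as the only scaling.

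Levels were set side by side as normalised CPM per kilobase of the longest GENCODE transcript. In controls the order was Ctgf (55.9 ± 17.1), Cyr61 (31.9 ± 8.63), Yap1 (26.5 ± 2.61), Wwtr1 (19.6 ± 1.27), Wisp2 (18.5 ± 8.18), Amotl2 (17.7 ± 3.28), Nov (3.96 ± 1.53) and Wisp1 (1.11 ± 0.35; SD, n = 10 each). Neighbours in this order overlapped between hearts except Yap1 with Wwtr1, Amotl2 with Nov and Nov with Wisp1. With rapamycin the order was Ctgf (56.4 ± 19.6), Cyr61 (52.7 ± 15.9), Yap1 (29.3 ± 2.14), Amotl2 (19.3 ± 2.89), Wwtr1 (18.5 ± 2.08), Wisp2 (15 ± 6.76), Nov (4.57 ± 1.57) and Wisp1 (0.95 ± 0.20; SD, n = 10 each). There Yap1 and Amotl2, Wisp2 and Nov, and Nov and Wisp1 did not overlap. By the union of exons, Ctgf stood at 50.7 and Cyr61 at 52.7 with rapamycin, so the order of this pair depends on the length used.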

How the data were processed

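The authors deposited raw read counts per gene symbol and a table of 700 selected genes in CPM. For the 696 genes matched by symbol these values equal the counts over the column total within 0.001 CPM. Per the series' design text, 50 bp paired-end reads were mapped to unique sites of MGSCv37. The sources used here name neither aligner, counter nor strand setting, and reads of antisense genes cannot be told apart. Columns were assigned by name. The members and lists were chosen with earlier results of these data known.

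Counts were filtered by expression, scaled by TMM and tested with edgeR 4.0.16 (R 4.3.3, quasi-likelihood F-test, 10 against 10 libraries, no covariate, Benjamini-Hochberg). Normalised CPM use TMM library sizes, log2 CPM a prior count of 2, and SE is the fold over the square root of F. Ratios and correlations used 100000 resamples, the latter within diet groups. Correlations with list means were added after the data were seen, as were the analyses of ratios and correlations without 1 library. Gene lengths are from GENCODE M21. Named genes are the members, called list genes or else the 3 smallest p, Ankrd1, Lats1, Lats2 and Tead1, and the 5 genes most like Cyr61, Ctgf and Amotl2; 1 gene under this rule is not reported here. Itgav, Itgb5, Itgb1, Itgb3, Sdc4, Abcc9, Kcnj8, Myl2, Nt5e, Myof, Arhgef17 and Msln fall outside this rule or were named after their values were seen. On simulated counts for 13940 genes in this comparison, changes of log2 0.4, 0.8, 1.2 and 2 were called at rates of 46%, 84%, 94% and 96%. The counts were drawn from each gene's estimated dispersion, and no simulated library was given transcripts of another organ. These rates are averages over randomly chosen genes and give no rate for a single member. Alternatives used DESeq2 1.42.0, limma 3.58.1, other scalings, filters and fewer libraries.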

Additional observations from a re-analysis of the deposited data

Results flagged for a closer look

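In 3 of the 16 sets of 10 hearts (8 genes in 2 groups) 1 heart stood apart from the rest of its group by a gap test at the 95% level. Chance gives this in about 1 of 20 sets of normally distributed values. The test was run on normalised CPM without logs and the sets share libraries, so this rate may not hold here. Cyr61 stood at 103 normalised CPM in control 7, against 76.9 in the next control. Without that heart its log2 fold was 0.83 (adjusted p = 0.0144 by edgeR). Nov stood at 24.5 normalised CPM in rapamycin 9, the library with 359 CPM of liver genes, against 15.2 in the next rapamycin heart. Wisp2 stood at 52.3 normalised CPM in rapamycin 5, against 32.8 in the next, and its log2 fold without that heart was -0.48 (adjusted p = 0.230 by edgeR).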

How the results depend on the processing

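Cyr61 kept its direction under all 29 alternatives (log2 fold 0.58 to 0.83, adjusted p 0.00181 to 0.0802 over them by edgeR, DESeq2 or limma) and its call under 27. The count of called members was 0 to 1 without 1 library, and 0 without the libraries with lung, liver or thymus transcripts. The count over all genes was 165 to 791 without 1 library, 1018 by DESeq2, 273 by limma-voom, 1332 with total counts only, 280 without libraries with lung transcripts and 25 without those of lung, liver or thymus. With total counts only 96.4% of calls were falls, against 79.5%, and without control 19 68.9%. Ctgf changed sign in limma-voom (-0.0058), with total counts only (-0.097) and in 9 of the 20 fits without 1 library (range -0.0657 to 0.113). Nov was at -0.0201 without the lung, liver or thymus libraries and Amotl2 at -0.012 with total counts only. Wisp1, Wisp2, Yap1 and Wwtr1 kept direction and side of the threshold under all 29. The difference in Cyr61 over Ctgf was 0.60 to 0.81 without 1 library and 0.67 without the lung, liver or thymus libraries, where that of Cyr61 over Amotl2 was 0.56. Pairs of members that passed numbered 0 to 4 without 1 heart. The cause of these changes was not tested. Wisp1 had the fewest reads of the members (27 to 94 per library). No paired analysis was possible because the labels give no pairing of animals between the groups.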
